A study of Mus musculus with 28 samples.

Results

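The genes described here are 40 coagulation and complement genes of mouse liver, chosen by name from the 20416 genes of the series. All 40 were present in each of the 3 deposited tables, and all passed the filter on low values. Of the 40, 36 encode plasma proteins made mainly by hepatocytes. The other 4 are the C1q chains C1qa, C1qb and C1qc, which tissue macrophages make, and Cfp (properdin), which comes mainly from white blood cells. The series compared 2 mouse models of steatohepatitis by sequencing polyadenylated RNA of whole liver. In the first, 4 livers of male C57BL/6 mice on a methionine- and choline-deficient diet (MCD) were set against 4 livers of mice on the matched low-fat control diet (CD). The titles give 4 weeks for this diet and another label gives a duration of 5 weeks. In the STAM model, male C57BL/6 mice had streptozotocin, a toxin of pancreatic beta cells, at postnatal day 2 and a high-fat diet that began at week 4. There were 5 STAM and 5 control (Ctrl) livers at 4 weeks of age, and 5 and 5 at 10 weeks. By the design text, livers at 4 weeks were taken when the high-fat diet began, although the sample labels name that diet for them. The labels put the Ctrl mice on a control diet and do not say whether they had a sham injection. No label names a gene alteration, and no label says whether samples of a group are separate animals. The p-values therefore cover the spread among the samples sequenced, and part of it may be technical.

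In blood clotting, serine proteases activate each other in a cascade that ends with thrombin, which turns fibrinogen into fibrin. Inhibitors such as antithrombin and protein C restrain the cascade, and plasmin dissolves the clot. Complement is a second cascade, entered through C1q, through mannose-binding lectins or through the alternative pathway, and its terminal components assemble a pore in the target membrane. The liver is the main source of the plasma proteins of both cascades, whereas C1q is known as a product of macrophages, Kupffer cells included.

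Promoter windows were looked up for the 40 genes in RefSeq (GRCm38.p6), each with 250 bases before and 50 bases after the start site, and 31 genes had one. Those of C8a, C8b and C9 are shown because these genes fell most in MCD livers, at chr4:104876349-104876648, minus strand, at chr4:104766067-104766366, plus strand, and at chr15:6445096-6445395, plus strand. The sequences run 5′ to 3′ in the direction of the gene, and capitals mark matches to any of 5 motifs searched on both strands: GTTAAT, part of the site of the hepatocyte factor HNF1; CTGGGA, the core of an interleukin 6 response element; TTCNNNGAA, a site of STAT factors; TTGCNNAA, a site of C/EBP factors; and TATAAA, the TATA box.
C8a: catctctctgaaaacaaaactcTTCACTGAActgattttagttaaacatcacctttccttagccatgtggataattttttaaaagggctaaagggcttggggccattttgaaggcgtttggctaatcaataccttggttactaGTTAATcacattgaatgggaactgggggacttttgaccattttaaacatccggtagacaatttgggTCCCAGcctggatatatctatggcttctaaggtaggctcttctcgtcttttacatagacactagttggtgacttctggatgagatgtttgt
C8b: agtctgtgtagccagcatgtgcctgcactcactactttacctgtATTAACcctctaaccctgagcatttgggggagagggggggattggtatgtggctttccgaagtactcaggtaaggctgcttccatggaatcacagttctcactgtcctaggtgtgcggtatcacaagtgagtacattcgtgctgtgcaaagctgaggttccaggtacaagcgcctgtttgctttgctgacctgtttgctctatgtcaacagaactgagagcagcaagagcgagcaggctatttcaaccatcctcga
C9: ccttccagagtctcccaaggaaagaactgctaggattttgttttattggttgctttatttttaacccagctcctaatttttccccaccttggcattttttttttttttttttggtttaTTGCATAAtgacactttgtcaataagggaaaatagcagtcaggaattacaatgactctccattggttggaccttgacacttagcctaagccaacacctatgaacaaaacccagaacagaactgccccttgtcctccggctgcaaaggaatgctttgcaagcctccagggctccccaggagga
The windows of the fibrinogen chains are shown because these 3 genes lie side by side, are the best known acute-phase genes among the 40, and all 3 fell in MCD livers. They lie at chr3:83025903-83026202, plus strand, at chr3:83049814-83050113, minus strand, and at chr3:83007474-83007773, plus strand.
Fga: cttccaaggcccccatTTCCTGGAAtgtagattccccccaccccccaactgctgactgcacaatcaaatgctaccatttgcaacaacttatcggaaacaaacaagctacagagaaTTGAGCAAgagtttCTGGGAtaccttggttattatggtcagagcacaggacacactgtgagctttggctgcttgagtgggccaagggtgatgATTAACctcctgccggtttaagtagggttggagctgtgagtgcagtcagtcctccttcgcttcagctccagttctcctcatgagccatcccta
Fgb: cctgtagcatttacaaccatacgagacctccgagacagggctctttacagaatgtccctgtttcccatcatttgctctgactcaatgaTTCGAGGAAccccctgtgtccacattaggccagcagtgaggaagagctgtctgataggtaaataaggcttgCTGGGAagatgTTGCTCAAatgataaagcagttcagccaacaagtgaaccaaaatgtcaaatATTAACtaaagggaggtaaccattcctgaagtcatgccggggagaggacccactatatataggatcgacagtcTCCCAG
Fgg: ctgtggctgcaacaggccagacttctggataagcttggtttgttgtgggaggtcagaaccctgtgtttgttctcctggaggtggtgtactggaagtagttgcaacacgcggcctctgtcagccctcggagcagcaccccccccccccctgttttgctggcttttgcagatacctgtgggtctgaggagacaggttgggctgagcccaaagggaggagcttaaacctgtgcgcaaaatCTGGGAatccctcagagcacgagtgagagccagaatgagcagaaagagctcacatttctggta
The start site of the Fgb window lay 73 bases upstream of the start in the deposited table, and that of Fgg lay 172 bases upstream. Fga and Fgb each held a match to 4 of the 5 motifs, and Fgg held only CTGGGA, which all 3 fibrinogen windows carried. C8a held the HNF1, interleukin 6 and STAT motifs, C8b the HNF1 motif alone, and C9 the C/EBP motif alone, so no motif was common to the 3 windows of the genes that fell most. Among the 28 hepatocyte-made genes with a window, the HNF1 motif was found in 9 (32.1%), against 7.10% of all 32851 promoter windows. The interleukin 6 motif was found in 15 (53.6%) against 31.8% of all windows, the STAT motif in 7 (25%) against 8.30%, the C/EBP motif in 9 (32.1%) against 10.8%, and the TATA box in 4 (14.3%) against 13.6%. None of the marked matches overlapped another. A match is a description of the letters and does not show that a factor binds.

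The libraries held 16.2 to 25.9 M reads, and the lowest read number of any of the 40 genes in any library was 223, which keeps counting error low. All values are log2 CPM, reads scaled to a common library size that the authors scaled within each table. Alb, the albumin gene that marks hepatocytes, took 6.58 to 8.36% of reads in MCD and 4.19 to 6.23% in CD livers. It took 8.58 to 9.90% in STAM and 10.1 to 11.8% in Ctrl livers at 4 weeks, and 3.08 to 5.13% in STAM and 4.70 to 6.99% in Ctrl livers at 10 weeks. On the log2 CPM scale the Alb change was 0.10 in MCD (adjusted p = 0.644) with overlapping groups, -0.34 at 4 weeks (adjusted p = 0.0284) and -0.96 at 10 weeks (adjusted p = 0.000648). Ctrl replicate 1 at 4 weeks stood apart, with 837 of 11956 genes (7.0%) more than 2-fold from the other 4 Ctrl livers, but none of the 40 genes was among them. Against the rest of its group, the median hepatocyte-made gene was 0.33 higher on the log2 scale in Ctrl replicate 1 at 10 weeks, 0.27 lower in STAM replicate 5 at 10 weeks and 0.33 lower in MCD replicate 4. The median C1q chain was 1.01 higher in MCD replicate 4. For the genes that these libraries move most, the change without them is given beside the result.

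In MCD livers 34 of the 36 hepatocyte-made genes were called lower, none was called higher, and 21 fell by at least 1 on the log2 scale. Genes were called at an adjusted p under 0.05 (limma with Benjamini-Hochberg adjustment over 15312 genes), and of all genes tested 42.7% were called, 20.1% were called lower and 5.52% were called lower by at least 1. The median change of the 36 genes was -1.19, against 0.071 for all genes tested. In all 34 called genes every MCD liver was below every CD liver, an order that 19.2% of all genes showed. At 4 weeks 5 of the 36 genes were called lower and 1 was called higher in STAM livers, where 9.8% of all genes were called, 3.27% lower and 6.52% higher. Their median change was -0.11 against 0.013 for all genes. On leaving out 1 library the count of 5 was 1 without Ctrl replicate 2 or STAM replicate 1, 2 without STAM replicate 3, 3 without Ctrl replicate 3, 4 or 5 or STAM replicate 2 or 4, and at most 6. At 10 weeks 30 were called lower and 1 was called higher, where 47.8% of all genes were called, 22.5% lower and 25.3% higher. The median was -0.70 against 0.0455. Of the 36 genes, 7 at 4 weeks and 25 at 10 weeks had every STAM liver below every Ctrl liver, an order shown by 3.67% and 16.3% of all genes. At 10 weeks 2 fell by at least 1 on the log2 scale, C8b and Cfb, as did 1.9% of all genes. The C1q chains went the other way and were called higher in all 3 comparisons, where 22.6%, 6.52% and 25.3% of all genes were called higher. Reads of the 36 genes made up 3.10 to 3.57% of all reads in MCD livers and 4.75 to 5.41% in CD livers. At 4 weeks they made up 3.99 to 4.54% in STAM and 4.23 to 4.48% in Ctrl livers, and at 10 weeks 3.27 to 3.71% in STAM and 3.97 to 5.96% in Ctrl livers. In whole liver, fewer cells of a type and less RNA per cell cannot be told apart. Under scaling to total reads, which moves the median of all genes to 0.49 in MCD, 0.090 at 4 weeks and 0.33 at 10 weeks, the median of the 36 genes was -0.77, -0.034 and -0.41. Of them 29 were then called lower in MCD, 2 at 4 weeks and 22 at 10 weeks. Under quantile normalization their median was -0.63 in MCD, -0.027 at 4 weeks and -0.34 at 10 weeks, with 24, 2 and 20 called lower. Without Ctrl replicate 1 at 10 weeks 27 of the 36 genes were called lower, without STAM replicate 5 at 10 weeks 28 were, and without MCD replicate 4 the MCD count was 34.

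**Figure D1:**
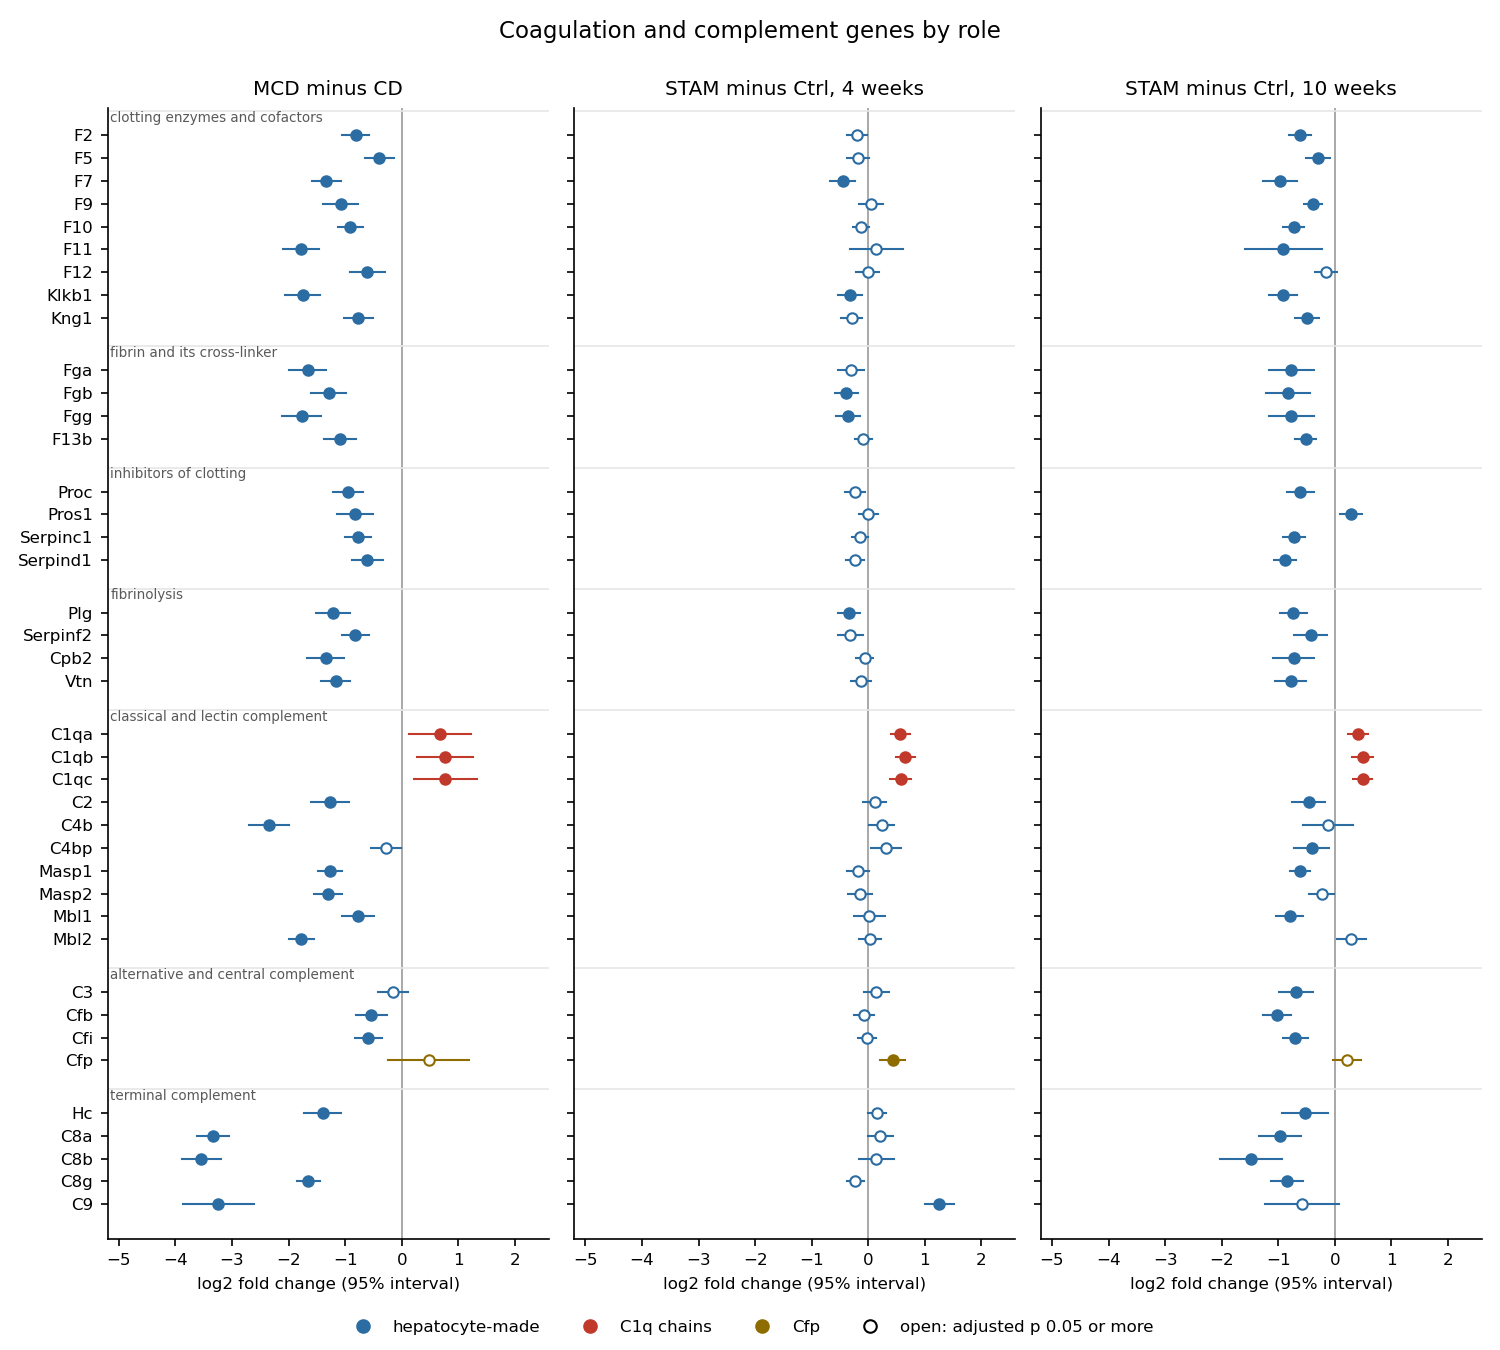
Log2 fold change of each of the 40 genes, in rows grouped by role, for MCD minus CD, STAM minus Ctrl at 4 weeks and STAM minus Ctrl at 10 weeks; points are estimates, bars are 95% intervals, and open points have an adjusted p of 0.05 or more. Hepatocyte-made genes lie left of 0 in the MCD panel, and in the 10-week panel except Pros1 at 0.28 and Mbl2 at 0.29; at 4 weeks C9 at 1.26 is the farthest from 0, and the C1q chains lie right of 0 in all 3 panels.

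Marker genes of several cell types were read beside these groups. Of 14 hepatocyte marker genes tested, 10 were called lower and 1 higher in MCD livers with a median of -0.50, and 10 were called lower at 10 weeks with a median of -0.42. At 4 weeks 3 were called lower and 1 higher. The summed level of the 14 was 93370 to 121100 CPM in MCD and 110900 to 131600 CPM in CD livers, with overlap. It was 134900 to 148800 CPM in STAM and 158400 to 177500 CPM in Ctrl livers at 4 weeks. At 10 weeks it was 64360 to 79580 CPM in STAM and 106800 to 129200 CPM in Ctrl livers. Summed cholangiocyte markers were at 112 to 194 CPM in MCD and 75.1 to 97.3 CPM in CD livers, at 104 to 138 CPM in STAM and 35.9 to 72.0 CPM in Ctrl livers at 4 weeks, and at 73.4 to 350.5 CPM in STAM and 26.6 to 44.8 CPM in Ctrl livers at 10 weeks. Summed platelet markers were at 2.43 to 3.15 CPM in MCD and 1.80 to 2.94 CPM in CD livers, with 1 of 5 called higher, and at 3.73 to 5.49 CPM in STAM and 3.58 to 5.56 CPM in Ctrl livers at 4 weeks, with none of 6 called. At 10 weeks they were at 3.80 to 4.89 CPM in STAM and 2.84 to 3.95 CPM in Ctrl livers, with 1 of 6 called higher and a median change of 1.04. Spp1 is in the cholangiocyte list and also in that of recruited macrophages given further on, so those sums share a gene. The part of these cell types in the results was not tested. Of the 36 hepatocyte-made genes, 34 in the authors' deposited tables were called lower in MCD, 3 at 4 weeks and 31 at 10 weeks, and the 3 C1q chains were called higher in each comparison. By the authors' values 1 of the 36 was called higher at 4 weeks and 2 at 10 weeks, Pros1 (0.28) and Mbl2 (0.31). C9 was called lower there at 10 weeks (-0.64).

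All 9 clotting enzymes and cofactors fell in MCD livers, with changes of -1.78 to -0.40. The largest falls were those of F11 and Klkb1, whereas F12 and Kng1, also of the contact and intrinsic arm, were among those that fell least. F11, the gene of factor XI, had 6.03, 5.64, 5.78 and 5.49 log2 CPM in the 4 MCD livers, against 7.36, 7.64, 7.21 and 7.85 in the 4 CD livers. It was 3.44-fold lower in MCD livers (log2 change -1.78 ± 0.15 SE, adjusted p = 2.15e-06), and no MCD liver reached the CD range. Klkb1, the prekallikrein gene, changed by -1.75 ± 0.14 SE (adjusted p = 1.35e-06). F7, whose product starts the extrinsic arm with tissue factor, was at 5.26 to 5.83 log2 CPM in MCD and 6.78 to 7.01 log2 CPM in CD livers, a change of -1.33. F5, the cofactor of factor Xa, fell least (-0.40 ± 0.12 SE, adjusted p = 0.0154), and under quantile normalization it was higher in MCD livers by 0.30. F2, the prothrombin gene, changed by -0.82 (-0.099 and not called under quantile normalization), F9 by -1.08, F10 by -0.91, F12 by -0.61 and Kng1, the kininogen gene, by -0.77. Under quantile normalization Kng1 (-0.088) and F12 (-0.23) did not pass, nor did F12 under scaling to total reads (-0.18). Kng1 has a near-identical copy, Kng2, so its counts are uncertain.

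At 4 weeks 2 of the 9 genes fell. F7 had 6.34, 6.47, 6.53, 6.08 and 6.38 log2 CPM in STAM livers, against 7.06, 6.92, 6.70, 6.64 and 6.75 log2 CPM in Ctrl livers. The groups did not overlap, and the change was -0.45 ± 0.10 SE (adjusted p = 0.0132). Klkb1 had 7.39, 7.18, 7.59, 7.61 and 7.57 log2 CPM in STAM livers, against 7.95, 7.89, 7.64, 7.74 and 7.74 log2 CPM in Ctrl livers. The closest livers of the groups lay 0.029 apart, its change of -0.32 ± 0.09 SE was close to the threshold (adjusted p = 0.0490), and the call was lost on removal of any of 9 of the 10 libraries, with adjusted p up to 0.116. The Klkb1 change was also not called under scaling to total reads (-0.25, adjusted p = 0.111) or quantile normalization (-0.27, adjusted p = 0.0804). At 10 weeks 8 of the 9 genes fell, F12 being the exception (-0.16 ± 0.09 SE, adjusted p = 0.160). F7 had 6.14, 6.10, 6.37, 5.84 and 5.59 log2 CPM in STAM livers, against 7.26, 6.71, 6.84, 6.997 and 7.06 log2 CPM in Ctrl livers. This was a 1.95-fold lower level (-0.96 ± 0.14 SE, adjusted p = 0.000154), again with no overlap. Klkb1 had 7.50, 7.24, 7.39, 7.21 and 6.75 log2 CPM in STAM livers, against 7.97, 8.19, 8.12, 8.21 and 8.19 log2 CPM in Ctrl livers, a change of -0.92 ± 0.12 SE (adjusted p = 4.1e-05). F11 changed by -0.91 ± 0.30 SE (adjusted p = 0.0316). STAM replicate 5 was its lowest value at 4.71 log2 CPM, the other 4 STAM livers lay between 5.73 and 6.04, without Ctrl replicate 1 the change was -0.77 (adjusted p = 0.0656), and without STAM replicate 5 it was -0.67 (adjusted p = 0.0314). Under quantile normalization it was -0.77 and did not pass (adjusted p = 0.0657). Under scaling to total reads F5, F9, F11 and Kng1 did not pass at 10 weeks, with changes of -0.0050, -0.099, -0.62 and -0.20. F9 (-0.13, adjusted p = 0.0865) and Kng1 (-0.11, adjusted p = 0.330) did not pass under quantile normalization either. The F5 call at 10 weeks (-0.30) was lost on removal of any of 5 of the 10 libraries, with adjusted p up to 0.0729, and under quantile normalization the F5 change was 0.02.

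Per length, the 3 fibrinogen chains had the highest mean levels of the 40 genes in CD, 10-week STAM and both sets of Ctrl livers, whereas C3 stood above Fga in MCD livers and above Fgg in 4-week STAM livers. Fgg averaged 1294 CPM per kilobase in MCD livers and 4382 CPM per kilobase in CD livers. Fgb averaged 1617 in MCD and 3964 in CD livers, and Fga 1139 in MCD and 3591 in CD livers. Fga, the alpha chain, had 11.55, 11.47, 11.88 and 11.25 log2 CPM in MCD livers, against 12.93, 13.21, 13.37 and 13.29 log2 CPM in CD livers. Fgb, the beta chain, had 11.43, 11.34, 11.44 and 10.99 log2 CPM in MCD livers, against 12.30, 12.69, 12.71 and 12.69 log2 CPM in CD livers. Fgg, the gamma chain, had 11.03, 10.96, 11.20 and 10.51 log2 CPM in MCD livers, against 12.38, 12.73, 12.87 and 12.79 log2 CPM in CD livers. MCD replicate 4 was the lowest MCD liver and CD replicate 1 the lowest CD liver for each chain, and no chain overlapped between the groups. The chains fell 3.17-fold (Fga), 2.45-fold (Fgb) and 3.41-fold (Fgg), with adjusted p of 3.8e-06, 1.66e-05 and 3.64e-06 by limma. Under quantile normalization, which forces the highest values of all libraries to be alike, the Fgb change was -0.23 and did not pass (adjusted p = 0.144). F13b, the carrier subunit of the fibrin cross-linker factor XIII, changed by -1.09 ± 0.13 SE (adjusted p = 3.97e-05).

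At 4 weeks 2 of the 3 chains were called lower in STAM livers. Fga had 12.19, 12.06, 12.29, 12.40 and 12.57 log2 CPM in STAM livers, against 12.38, 12.71, 12.71, 12.63 and 12.61 log2 CPM in Ctrl livers. Fgb had 11.70, 11.62, 11.66, 11.83 and 12.01 log2 CPM in STAM livers, against 12.04, 12.32, 12.22, 12.06 and 12.11 log2 CPM in Ctrl livers. Fgg had 11.29, 11.19, 11.35, 11.50 and 11.67 log2 CPM in STAM livers, against 11.60, 11.87, 11.85, 11.77 and 11.73 log2 CPM in Ctrl livers. STAM replicate 5 was the highest STAM liver for all 3 chains and reached the Ctrl range for Fga and Fgg, as replicate 4 did for Fga. The changes were -0.31 for Fga (adjusted p = 0.0885, not called), -0.39 for Fgb (adjusted p = 0.0213) and -0.37 for Fgg (adjusted p = 0.0347). The Fgb call was lost on removal of any of 3 of the 10 libraries, with adjusted p up to 0.0595, and the Fgg call on removal of any of 7, with adjusted p up to 0.0916. Under quantile normalization the Fgg change was -0.28 and did not pass (adjusted p = 0.0774). The Fga change passed the threshold without Ctrl replicate 1 (adjusted p = 0.0307) and without STAM replicate 5 (adjusted p = 0.0464).

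At 10 weeks all 3 chains were lower in STAM livers with no overlap. Fga had 12.02, 11.87, 11.86, 12.02 and 11.54 log2 CPM in STAM livers, against 13.34, 12.37, 12.69, 12.34 and 12.42 log2 CPM in Ctrl livers. Fgb had 11.47, 11.32, 11.40, 11.50 and 11.08 log2 CPM in STAM livers, against 12.91, 11.87, 12.23, 11.91 and 11.996 log2 CPM in Ctrl livers. Fgg had 11.11, 10.96, 11.06, 11.13 and 10.71 log2 CPM in STAM livers, against 12.52, 11.43, 11.82, 11.52 and 11.51 log2 CPM in Ctrl livers. Ctrl replicate 1 was the highest Ctrl liver and STAM replicate 5 the lowest STAM liver for each chain. The changes were -0.77 for Fga, -0.83 for Fgb and -0.77 for Fgg, with adjusted p of 0.00359, 0.00201 and 0.00399. Without Ctrl replicate 1 they were -0.59, -0.65 and -0.58, with adjusted p of 0.00184, 0.000651 and 0.00134. Without STAM replicate 5 they were -0.69, -0.76 and -0.70. Under quantile normalization the Fgg change was -0.33 and did not pass (adjusted p = 0.0825). F13b changed by -0.51 ± 0.09 SE (adjusted p = 0.00035).

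**Figure D2:**
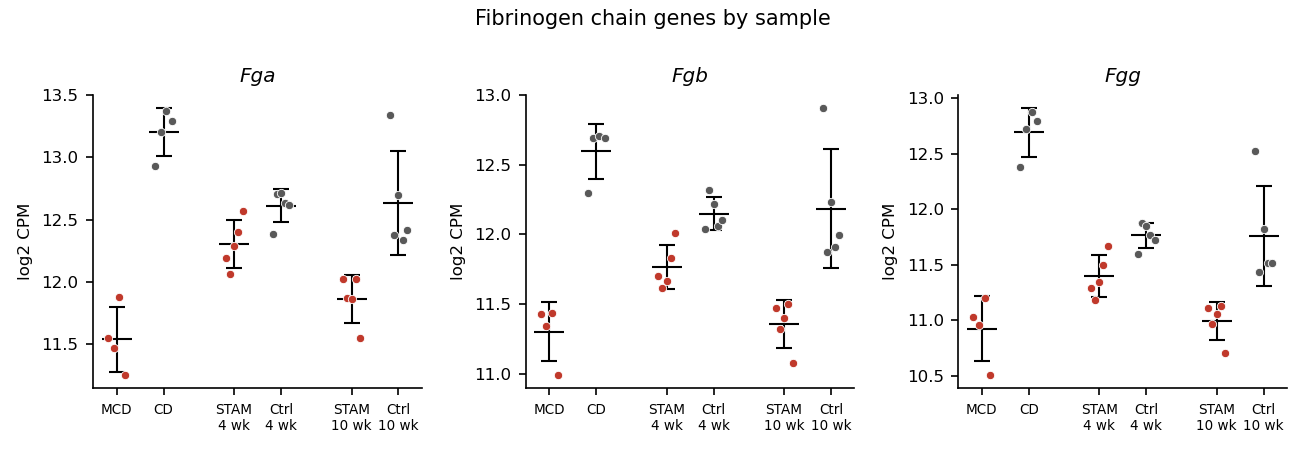
Log2 CPM of Fga, Fgb and Fgg in every liver, with STAM or MCD livers in red to the left of their controls in grey; each point is a sample, the horizontal dash the mean and the bar 1 SD. The 4 MCD livers sit below all CD livers by at least 0.858 in each panel, and 1 Ctrl liver at 10 weeks lies above the other 4 for all 3 chains.

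The 4 genes that inhibit clotting all fell in MCD livers. Serpinc1, the antithrombin gene, was at 10.63 to 10.84 log2 CPM in MCD and 11.38 to 11.56 log2 CPM in CD livers (-0.78 ± 0.11 SE, adjusted p = 8.6e-05). Proc, the protein C gene, changed by -0.95, Pros1, the gene of its cofactor protein S, by -0.83, and Serpind1, the heparin cofactor II gene, by -0.61. Under quantile normalization Serpinc1 (-0.056) and Serpind1 (0.093) did not pass, nor did Serpind1 under scaling to total reads (-0.19). At 4 weeks none of the 4 passed the test, with changes of -0.23 to -0.0024. At 10 weeks Serpinc1 (-0.72), Serpind1 (-0.88) and Proc (-0.61) fell. By limma with the authors' scaling, Pros1 was the only hepatocyte-made gene called higher at 10 weeks. It had 6.84, 6.86, 6.71, 6.63 and 6.75 log2 CPM in STAM livers, against 6.70, 6.17, 6.61, 6.47 and 6.42 log2 CPM in Ctrl livers. The groups overlapped, and the change was 0.28 ± 0.09 SE (adjusted p = 0.0196). Pros1 is also made outside hepatocytes, by endothelial cells among others, and 3 of 6 endothelial markers were called higher and 1 lower at 10 weeks. Their part in the Pros1 change was not tested.

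The 4 genes of fibrinolysis fell in MCD and in 10-week STAM livers. Plg, which encodes plasminogen, was at 9.87 to 10.40 log2 CPM in MCD and 11.22 to 11.50 log2 CPM in CD livers (-1.22 ± 0.14 SE, adjusted p = 1.94e-05). At 4 weeks Plg had 10.82, 10.82, 10.78, 10.62 and 10.88 log2 CPM in STAM livers, against 11.32, 11.23, 11.13, 10.96 and 10.97 log2 CPM in Ctrl livers. The groups did not overlap (-0.34 ± 0.09 SE, adjusted p = 0.0325), but the call was lost on removal of any of 6 of the 10 libraries, with adjusted p up to 0.0791, and under scaling to total reads (-0.26, adjusted p = 0.0662) and quantile normalization (-0.26, adjusted p = 0.0594). At 10 weeks Plg changed by -0.73 (adjusted p = 0.000154). The genes that slow fibrinolysis moved the same way in these models. Serpinf2, the antiplasmin gene, changed by -0.82 in MCD and by -0.43 in 10-week STAM livers, Cpb2, which encodes the thrombin-activated carboxypeptidase of plasma, by -1.35 and -0.73, and Vtn, the vitronectin gene, by -1.17 and -0.78. The Serpinf2 change in MCD did not pass under quantile normalization (-0.12), and that at 10 weeks passed neither under scaling to total reads (-0.14, adjusted p = 0.357) nor under quantile normalization (-0.13, adjusted p = 0.422).

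The 5 terminal complement genes held the largest falls in MCD livers. C8b, which encodes the beta chain of component C8, had 6.13, 5.75, 6.13 and 5.79 log2 CPM in MCD livers, against 9.19, 9.40, 9.41 and 9.95 log2 CPM in CD livers. It was 11.7-fold lower (log2 change -3.54 ± 0.16 SE, adjusted p = 1.75e-08), and the highest MCD liver lay 3.063 below the lowest CD liver. C8a, the alpha chain gene, had 7.24, 7.05, 7.10 and 6.97 log2 CPM in MCD livers, against 10.17, 10.29, 10.44 and 10.81 log2 CPM in CD livers. This was a 10.1-fold lower level (-3.34 ± 0.13 SE, adjusted p = 5.36e-09). C9, whose product polymerises into the pore, had 7.15, 6.22, 6.78 and 6.07 log2 CPM in MCD livers, against 9.44, 9.42, 9.97 and 10.37 log2 CPM in CD livers. It was 9.49-fold lower (-3.25 ± 0.28 SE, adjusted p = 1.86e-05). C8g, the gamma chain gene, fell by 3.14-fold (-1.65 ± 0.09 SE, adjusted p = 9.26e-08) and Hc, the mouse gene of component C5, by 2.63-fold (-1.40 ± 0.15 SE, adjusted p = 1.42e-05). Per length, C8a averaged 37.6 CPM per kilobase in MCD and 384.5 CPM per kilobase in CD livers, C8b 27.8 in MCD and 327.8 in CD livers, and C9 55.7 in MCD and 524.7 in CD livers.

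At 4 weeks C9 was the only hepatocyte-made gene called higher in STAM livers. It had 8.12, 7.83, 8.19, 7.71 and 8.16 log2 CPM in STAM livers, against 6.81, 6.80, 6.47, 6.99 and 6.66 log2 CPM in Ctrl livers. The closest livers of the groups lay 0.719 apart, and C9 was 2.39-fold higher (1.26 ± 0.12 SE, adjusted p = 3.43e-05). The other 4 terminal genes did not pass the test at 4 weeks, with changes of -0.23 to 0.21. At 10 weeks C8b had 7.74, 7.39, 7.68, 7.47 and 6.67 log2 CPM in STAM livers, against 9.38, 8.17, 8.91, 9.02 and 8.93 log2 CPM in Ctrl livers, a 2.81-fold lower level with no overlap (-1.49 ± 0.25 SE, adjusted p = 0.000748). C8a had 9.83, 9.45, 9.69, 9.68 and 9.28 log2 CPM in STAM livers, against 11.02, 10.21, 10.75, 10.72 and 10.09 log2 CPM in Ctrl livers (-0.98 ± 0.17 SE, adjusted p = 0.000512). STAM replicate 5 was the lowest of its group for both genes, and without it the changes were -1.31 and -0.90. C8g changed by -0.85 (adjusted p = 0.000244). C9 had 8.86, 8.68, 8.86, 8.71 and 7.89 log2 CPM in STAM livers, against 9.95, 8.42, 9.31, 9.46 and 8.77 log2 CPM in Ctrl livers. The groups overlapped and the change did not pass (-0.58 ± 0.29 SE, adjusted p = 0.129), and it was -0.39 (adjusted p = 0.2503) without Ctrl replicate 1, -0.40 (adjusted p = 0.263) without STAM replicate 5 and -0.77 (adjusted p = 0.0345) without Ctrl replicate 2. Hc changed by -0.53 (adjusted p = 0.0321), a call lost on removal of any of 6 of the 10 libraries, with adjusted p up to 0.0722, and without Ctrl replicate 1 the change was -0.38. Under scaling to total reads Hc changed by -0.24 (adjusted p = 0.249) and under quantile normalization by -0.20 (adjusted p = 0.354).

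**Figure D3:**
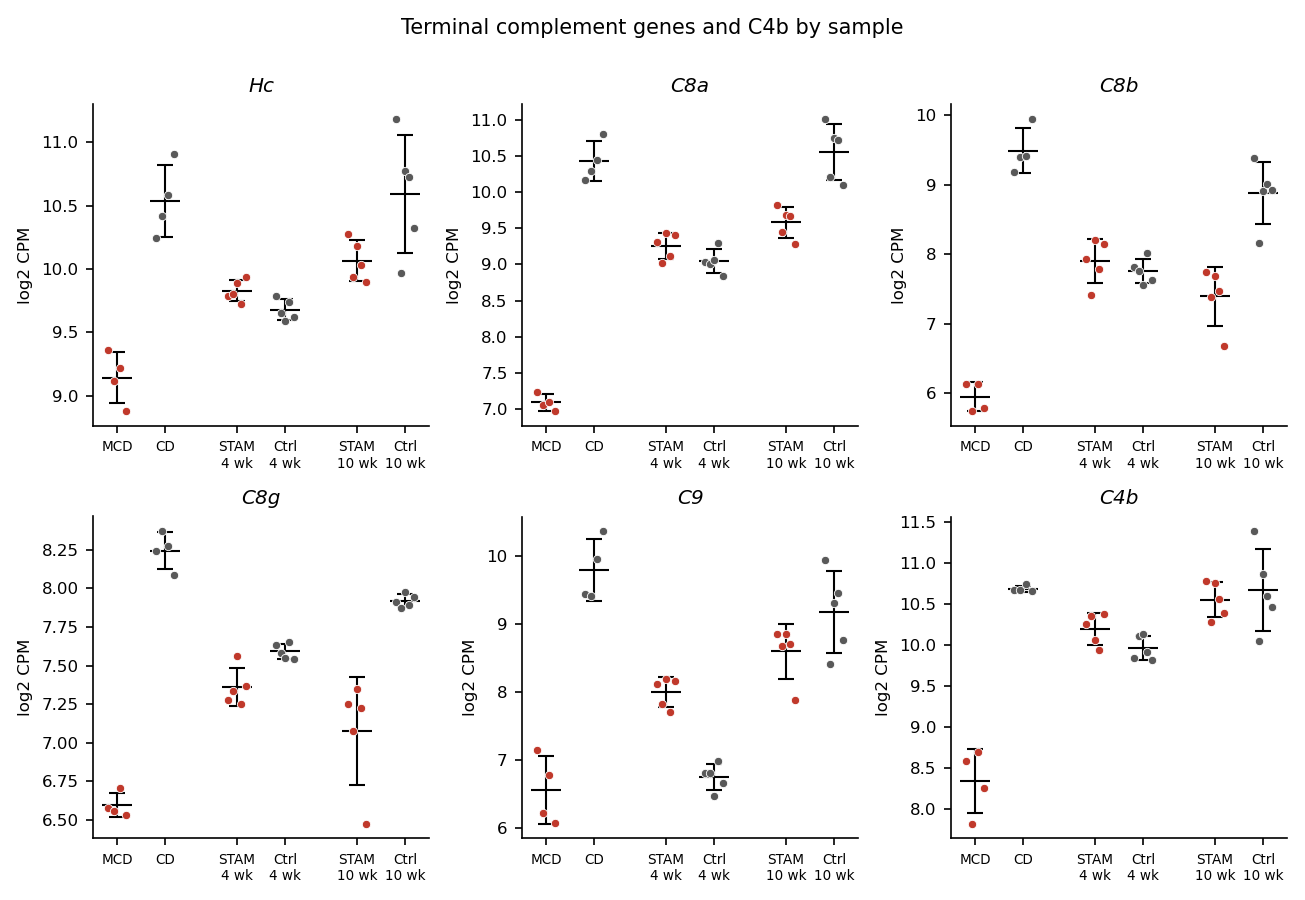
Log2 CPM of the terminal complement genes Hc, C8a, C8b, C8g and C9 and of C4b in every liver, with MCD or STAM livers in red to the left of their controls in grey; points are samples, dashes means and bars 1 SD. In MCD livers C8a, C8b and C9 lie between 5.75 and 7.24, all below the CD livers, which lie between 9.19 and 10.81, and C9 at 4 weeks is the only gene and age plotted where every STAM liver lies above every Ctrl liver.

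Of the 7 hepatocyte-made genes of the classical and lectin pathways, 6 fell in MCD livers. C4b, the gene of component C4, had 8.59, 7.82, 8.69 and 8.26 log2 CPM in MCD livers, against 10.66, 10.66, 10.73 and 10.65 log2 CPM in CD livers. It was 5.06-fold lower (-2.34 ± 0.16 SE, adjusted p = 5.38e-07), although reads may be shared with its near-identical copy C4a, which changed by -2.32. Mbl2, a mannose-binding lectin gene, was at 6.72 to 7.03 log2 CPM in MCD and 8.54 to 8.75 log2 CPM in CD livers (-1.78 ± 0.10 SE, adjusted p = 1.06e-07), and its relative Mbl1 changed by -0.77. The lectin-associated protease genes Masp1 and Masp2 changed by -1.27 and -1.30, and C2, the protease partner of C4, by -1.26. C4bp, an inhibitor of the classical pathway, did not pass (-0.28, adjusted p = 0.0884), but it was called higher in MCD livers under quantile normalization. At 4 weeks none of the 7 passed, with changes of -0.18 to 0.31. At 10 weeks Mbl1 (-0.79), Masp1 (-0.62), C2 (-0.46) and C4bp (-0.41) fell. The C4bp call was lost on removal of any of 6 of the 10 libraries, with adjusted p up to 0.0780. Under scaling to total reads C2 (-0.17, adjusted p = 0.245) and C4bp (-0.12, adjusted p = 0.473) did not pass, nor did they under quantile normalization (-0.26 for C2, adjusted p = 0.118, and -0.10 for C4bp, adjusted p = 0.565). C4b at 10 weeks had 10.77, 10.28, 10.75, 10.56 and 10.39 log2 CPM in STAM livers, against 11.38, 10.05, 10.86, 10.59 and 10.46 log2 CPM in Ctrl livers, with an interval of the change from -0.56 to 0.33. Mbl2 was at 8.30 to 9.05 log2 CPM in STAM and 8.38 to 8.58 log2 CPM in Ctrl livers at 10 weeks, a change of 0.29 (adjusted p = 0.0575) that passed without STAM replicate 5 (0.41, adjusted p = 0.00127). Mbl2 also passed at 10 weeks under scaling to total reads (0.58, adjusted p = 0.000387) and quantile normalization (0.56, adjusted p = 0.000888).

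C3, the central component that all routes cleave, had 12.66, 12.45, 12.81 and 12.61 log2 CPM in MCD livers, against 12.82, 12.85, 12.66 and 12.83 log2 CPM in CD livers. The groups overlapped (-0.16 ± 0.12 SE, adjusted p = 0.307, 95% interval -0.42 to 0.10). Under quantile normalization, however, C3 was called higher in MCD livers. At 4 weeks its change was 0.14 (adjusted p = 0.428). At 10 weeks C3 had 12.57, 12.24, 12.56, 12.11 and 12.59 log2 CPM in STAM livers, against 13.47, 12.95, 13.12, 13.01 and 12.97 log2 CPM in Ctrl livers. Here the groups did not overlap (-0.69 ± 0.14 SE, adjusted p = 0.00144), although the change was -0.24 and did not pass under quantile normalization (adjusted p = 0.167). Cfb, the protease of the alternative pathway, had 9.71, 9.35, 9.60, 9.50 and 9.40 log2 CPM in STAM livers at 10 weeks, against 10.91, 10.29, 10.58, 10.48 and 10.43 log2 CPM in Ctrl livers. It was 2.03-fold lower (-1.02 ± 0.12 SE, adjusted p = 1.81e-05), and in MCD livers it changed by -0.54 (adjusted p = 0.00484). Cfi, which cleaves activated C3, changed by -0.59 in MCD and -0.70 in 10-week STAM livers. Under quantile normalization Cfb and Cfi were higher in MCD livers, by 0.19 and 0.05, and neither passed, nor did Cfb (-0.11) and Cfi (-0.17) under scaling to total reads.

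The C1q chains rose in every comparison. C1qa had 5.41, 5.50, 5.73 and 6.56 log2 CPM in MCD livers, against 5.35, 4.96, 5.39 and 4.78 log2 CPM in CD livers. C1qb had 6.01, 5.98, 6.41 and 6.93 log2 CPM in MCD livers, against 5.82, 5.32, 5.89 and 5.22 log2 CPM in CD livers. C1qc had 5.32, 5.43, 5.68 and 6.44 log2 CPM in MCD livers, against 5.21, 4.72, 5.27 and 4.58 log2 CPM in CD livers. No chain overlapped, but the closest livers of the groups lay 0.021 to 0.088 apart, and MCD replicate 4 was far above the other 3 MCD livers. The changes were 0.68 ± 0.25, 0.77 ± 0.22 and 0.77 ± 0.25 (SE), with adjusted p of 0.0466, 0.0184 and 0.0307 by limma. These calls rested on few libraries. Without CD replicate 4 none of the 3 passed, with adjusted p of 0.118, 0.0509 and 0.0821. Without CD replicate 2 C1qa and C1qc did not pass (adjusted p = 0.103 and 0.0768), nor did they without MCD replicate 3 (adjusted p = 0.0761 and 0.0574). Without MCD replicate 4 all 3 passed, and the changes were 0.43, 0.57 and 0.53.

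The C1q chains were also higher in STAM livers. At 4 weeks C1qa had 6.05, 6.27, 5.99, 6.18 and 5.91 log2 CPM in STAM livers, against 5.43, 5.40, 5.53, 5.59 and 5.62 log2 CPM in Ctrl livers. C1qb had 6.36, 6.54, 6.30, 6.48 and 6.18 log2 CPM in STAM livers, against 5.65, 5.58, 5.72, 5.83 and 5.79 log2 CPM in Ctrl livers. C1qc had 6.02, 6.17, 5.87, 6.11 and 5.82 log2 CPM in STAM livers, against 5.36, 5.26, 5.49, 5.51 and 5.49 log2 CPM in Ctrl livers. Every STAM liver lay above every Ctrl liver, with changes of 0.57, 0.66 and 0.57 and adjusted p of 0.000884, 0.000291 and 0.00109. At 10 weeks C1qa had 6.06, 6.07, 5.76, 5.89 and 5.80 log2 CPM in STAM livers, against 5.61, 5.41, 5.69, 5.38 and 5.44 log2 CPM in Ctrl livers. C1qb had 6.35, 6.43, 6.18, 6.27 and 6.16 log2 CPM in STAM livers, against 5.66, 5.73, 6.09, 5.71 and 5.77 log2 CPM in Ctrl livers. C1qc had 6.09, 6.06, 5.85, 5.83 and 5.88 log2 CPM in STAM livers, against 5.51, 5.33, 5.64, 5.36 and 5.39 log2 CPM in Ctrl livers. The groups were again apart, with changes of 0.41, 0.49 and 0.49 and adjusted p of 0.00128, 0.000454 and 0.000203. All 3 chains passed at both ages on removal of any 1 library. Cfp, which stabilises the alternative pathway convertase, had 5.19, 5.29, 5.20, 5.27 and 4.83 log2 CPM in STAM livers at 4 weeks, against 4.77, 4.50, 4.73, 4.89 and 4.75 log2 CPM in Ctrl livers. The groups overlapped in 1 STAM liver, and the change was 0.43 ± 0.10 SE (adjusted p = 0.0170). Cfp did not pass in MCD (0.48, adjusted p = 0.258), where the change was 0.14 (adjusted p = 0.566) without MCD replicate 4, or at 10 weeks (0.21, adjusted p = 0.144), where it passed without STAM replicate 5 (0.31, adjusted p = 0.0174). Under scaling to total reads Cfp passed in MCD (0.90, adjusted p = 0.0443) and at 10 weeks (0.50, adjusted p = 0.00150).

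**Figure D4:**
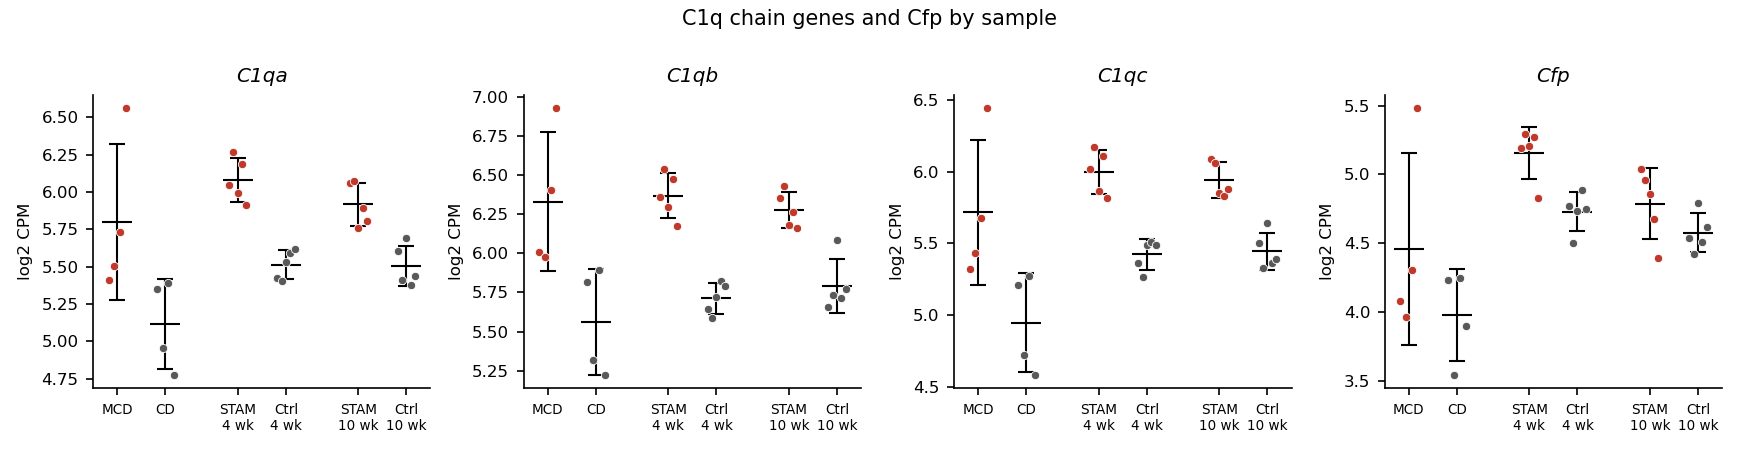
Log2 CPM of C1qa, C1qb, C1qc and Cfp in every liver, with MCD or STAM livers in red to the left of their controls in grey; points are samples, dashes means and bars 1 SD. The C1q chains lie higher in each red group than in its control, and 1 MCD liver stands far above the other 3 in all 4 panels.

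Macrophage markers rose with the C1q chains. Of 12 macrophage markers, 8 were called higher in MCD livers, 9 at 4 weeks and 10 at 10 weeks, and none was called lower. Over all genes tested, 22.6%, 6.52% and 25.3% were called higher in these comparisons. Their summed level was 663 to 1080 CPM in MCD and 363 to 538 CPM in CD livers, 547 to 666 CPM in STAM and 330.0 to 422 CPM in Ctrl livers at 4 weeks, and 656 to 835 CPM in STAM and 386 to 494 CPM in Ctrl livers at 10 weeks. Of 9 markers of recruited macrophages, 8 were called higher in MCD, 7 at 4 weeks and 9 at 10 weeks, with median changes of 2.17, 1.14 and 2.67. Their summed level was 292 to 438.5 CPM in MCD and 101 to 126 CPM in CD livers, 127 to 183 CPM in STAM and 51.5 to 82.2 CPM in Ctrl livers at 4 weeks, and 146 to 461 CPM in STAM and 40.4 to 60.9 CPM in Ctrl livers at 10 weeks. Summed neutrophil markers were at 6.79 to 10.8 CPM in MCD and 1.21 to 5.81 CPM in CD livers. In the STAM comparisons these sums overlapped. They were at 1.76 to 15.7 CPM in STAM and 0.917 to 13.3 CPM in Ctrl livers at 4 weeks. At 10 weeks they were at 3.88 to 10.7 CPM in STAM and 1.67 to 5.15 CPM in Ctrl livers. Adgre1, the gene of the macrophage surface protein F4/80, changed by 0.72 in MCD (adjusted p = 0.0852; 0.40 without MCD replicate 4, adjusted p = 0.0736), 0.53 at 4 weeks (adjusted p = 0.0317) and 0.63 at 10 weeks (adjusted p = 0.00385). Csf1r, the receptor gene that macrophages need to survive, changed by 0.49 in MCD (adjusted p = 0.0689; 0.31 without MCD replicate 4, adjusted p = 0.156), 0.30 (adjusted p = 0.154) and 0.69 (adjusted p = 0.000501). Clec4f, a marker of resident Kupffer cells, changed by -0.04 in MCD (-0.20 without MCD replicate 4) and 0.10 at 10 weeks, neither passing, and by 0.44 at 4 weeks (adjusted p = 0.0149). Of all 7 Kupffer cell markers, 2 were called higher in MCD, 5 at 4 weeks and 2 at 10 weeks, and none was called lower. Their median changes were -0.02, 0.44 and 0.10. For each 100 reads of macrophage markers there were 14.9 to 28.1 C1q reads in MCD and 17.5 to 26.8 in CD livers, and 32.1 to 37.0 in STAM and 31.8 to 43.6 in Ctrl livers at 4 weeks. At 10 weeks there were 25.3 to 30.3 in STAM and 30.4 to 37.5 in Ctrl livers, and every STAM liver lay below every Ctrl liver in this ratio, though narrowly. For each 100 reads of Kupffer cell markers there were 32.4 to 43.3 C1q reads in MCD and 25.7 to 31.8 in CD livers, 34.5 to 40.5 in STAM and 31.9 to 38.4 in Ctrl livers at 4 weeks, and 38.2 to 48.7 in STAM and 35.3 to 46.8 in Ctrl livers at 10 weeks. In the ratio to Kupffer cell markers every MCD liver lay above every CD liver, also narrowly. Cdh5, in the Kupffer cell list, is also an endothelial gene. How far macrophage number set the C1q level was not tested.

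The STAM change at 10 weeks was compared with that at 4 weeks in a single model. Of the 36 hepatocyte-made genes, 22 had a more negative change at 10 weeks and none a more positive one, where 20% of all 15022 genes tested were called, 11.2% more negative and 8.89% more positive. All 5 terminal genes were among the 22, but Hc was not under either other scaling. The largest difference was that of C9 (-1.84 ± 0.33 SE, adjusted p = 0.000968), followed by C8b (-1.63) and C8a (-1.19). Cfb (-0.95), C3 (-0.83) and Mbl1 (-0.81) came next. For the fibrinogen chains the differences were -0.46, -0.44 and -0.40 with adjusted p of 0.145 to 0.208, and the intervals reached -0.92, -0.88 and -0.86. The C1q chains did not pass (differences of -0.17 to -0.08), with 95% intervals from -0.42 to 0.16. The Plg call (-0.40, adjusted p = 0.0493) was lost on removal of any of 15 of the 20 libraries, with adjusted p up to 0.0927. Under scaling to total reads 12 of the 36 genes had a more negative change at 10 weeks and 2, Pros1 and Mbl2, a more positive one. The calls lost were those of F2, F9, Klkb1, F13b, Plg, Cpb2, C2, C4bp, Masp1 and Hc. Quantile normalization gave the same counts, and the calls lost were those of F2, F9, Plg, Cpb2, Vtn, C2, C4bp, Masp1, C3 and Hc.

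The MCD change was compared with the 10-week STAM change in the same way. Of the 36 genes, 17 had a more negative change in MCD and 2 a more positive one, where 27.9% of 14986 genes were called, 15% more negative and 12.9% more positive. The largest were those of C9 (-2.67 ± 0.45 SE, adjusted p = 0.000363), C8a (-2.36), C4b (-2.22), Mbl2 (-2.07) and C8b (-2.05). The 28 genes called lower in both made up 82.4% of the 34 lower in MCD and 93.3% of the 30 lower at 10 weeks. Over all genes, the 1506 lower in both made up 48.9% of the 3079 lower in MCD and 43.7% of the 3443 lower at 10 weeks. The difference between these shares was not tested. In 24 of these 28 the estimate was more negative in MCD. Pros1 alone had opposite calls, lower in MCD and higher at 10 weeks, and the difference was -1.11 (adjusted p = 0.000115). C3 and Cfb had the more positive changes in MCD, by 0.53 (adjusted p = 0.0366) and 0.49 (adjusted p = 0.0450). Neither was firm, since the C3 call was lost on removal of any of 8 of the 18 libraries and the Cfb call on removal of any of 11, with adjusted p up to 0.0752 for C3 and 0.103 for Cfb. Under quantile normalization the Fga and Fgg differences did not pass, at -0.39 for Fga and -0.49 for Fgg, against -0.90 and -1.001 with the authors' scaling, nor did that of Hc (-0.53, adjusted p = 0.0778). Serpind1 passed as more positive in MCD under scaling to total reads (0.40) and quantile normalization (0.66), and C4bp (0.53) and Cfi (0.44) under quantile normalization. The Plg call (-0.49) was lost on removal of any of 11 libraries, with adjusted p up to 0.0918, and under both other scalings (-0.35 for total reads, -0.21 for quantile). Without Ctrl replicate 1 the Fgb difference passed as well (-0.65, adjusted p = 0.0110), against -0.47 (adjusted p = 0.169) with all libraries. The C1q chains differed by 0.27 to 0.28 and did not pass, with intervals from -0.27 to 0.81.

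**Figure D5:**
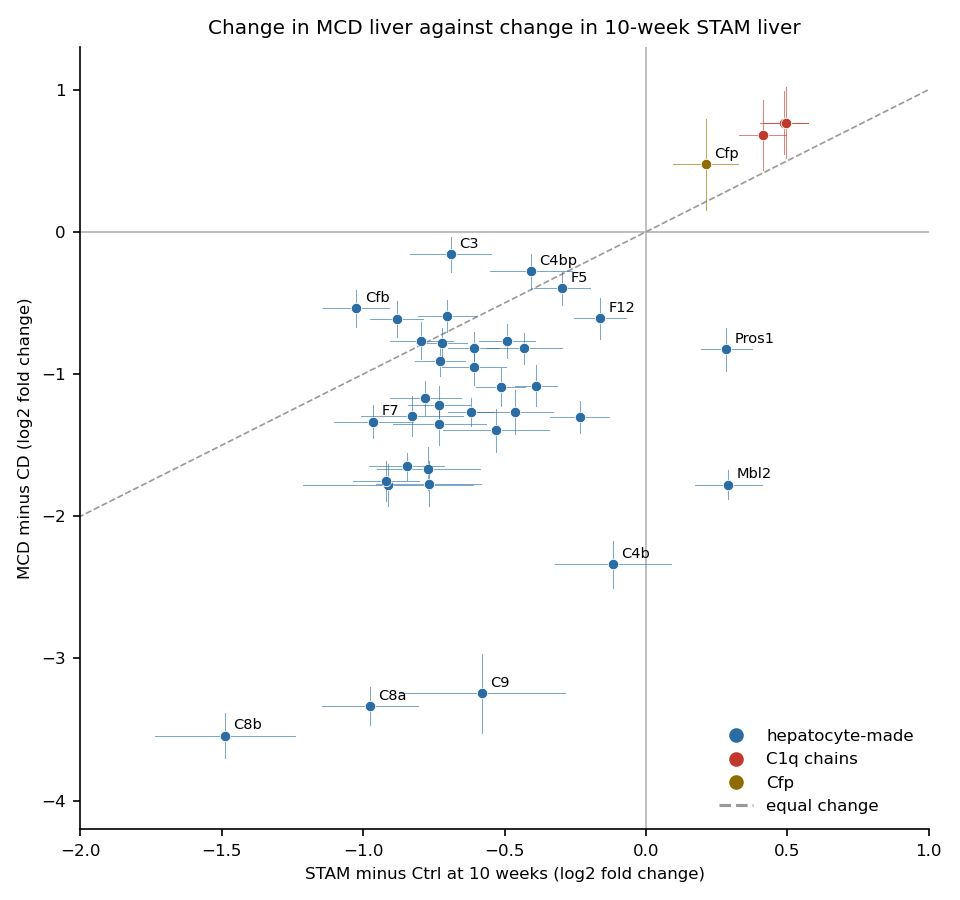
Log2 fold change of each of the 40 genes in MCD minus CD (vertical) against STAM minus Ctrl at 10 weeks (horizontal); bars are 1 SE and the dashed line marks equal change. Hepatocyte-made genes lie mostly below the line, C8a, C8b and C9 farthest below 0, C3 and Cfb are among the few above it, Pros1 and Mbl2 are right of 0 and below it, and the C1q chains are in the upper right.

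Several of the genes are neighbours on the genome (mm10, positions as deposited with 1 added to the start). C8b (chr4:104766317-104804548) and C8a (chr4:104815680-104876398) face each other across 11.1 kilobases and changed by -3.54 and -3.34 in MCD, and C8g, on chromosome 2 (chr2:25498650-25501719), by -1.65. Fgg, Fga and Fgb lie within chr3:83007896-83049790 with gaps of 11.1 and 8.69 kilobases. C1qb, C1qc and C1qa lie in a row within chr4:136880145-136898844. F11 and Klkb1 lie 7.42 kilobases apart on chromosome 8 and changed by -1.78 and -1.75 in MCD, and F7 and F10, 1502 bases apart on the same chromosome, by -1.33 and -0.91. Cfb and C2 are 87 bases apart on chromosome 17 and changed by -0.54 and -1.26 in MCD and -1.02 and -0.46 at 10 weeks.

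Other genes of the pathways moved in both directions. Of 29 further coagulation genes, 11 rose and 10 fell in MCD livers, 5 rose and 2 fell at 4 weeks, and 14 rose and 9 fell at 10 weeks. The shares over all genes were 22.6% higher and 20.1% lower in MCD, 6.52% and 3.27% at 4 weeks, and 25.3% and 22.5% at 10 weeks. The risers in MCD included Plaur (3.08), the urokinase receptor gene, and Anxa2 (2.91), which binds plasminogen to cell surfaces. At 10 weeks Plat (3.64), the tissue plasminogen activator gene, F2rl1 (3.44), a protease-activated receptor, and Plau (2.09), the urokinase gene, rose. These genes are expressed by many cell types. Of the further complement genes, 7 rose and 12 fell of 29 in MCD, 6 rose and none fell of 30 at 4 weeks, and 7 rose and 9 fell of 29 at 10 weeks. C6, a terminal component, changed by -3.27 in MCD (adjusted p = 7.36e-07), by 2.13 at 4 weeks (adjusted p = 0.000752) and by -0.17 at 10 weeks (adjusted p = 0.716). Its estimates thus had the same signs as those of C9 in the 3 comparisons. Of 16 regulators, 7 fell and none rose in MCD, 2 fell and 1 rose at 4 weeks, and 6 fell and 3 rose at 10 weeks. The changes of the 16 ran from -2.59 to 0.43 in MCD, from -1.95 to 0.78 at 4 weeks and from -2.15 to 0.91 at 10 weeks. Hnf4a and Cebpa, hepatocyte transcription factors named after their values were seen, changed by -0.43 and -0.80 in MCD, -0.02 and -0.13 at 4 weeks, and -0.51 and -0.49 at 10 weeks, passing in MCD and at 10 weeks but not at 4 weeks.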

How the data were processed

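The deposited values are log2 CPM, in 3 tables of 20416 genes that the authors scaled separately, and the submitters' processing notes list STAR 2.4.2a and mm10. The sources used here name no read counter, annotation release or test of the authors. The p-value and fold columns in the deposited tables are the authors' own, and the counted gene length in the deposited tables was used for CPM per kilobase. Per the labels' protocols, libraries were stranded, poly(A)-selected and paired-end.

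The low values step by whole reads, and 100.0% of values came out whole within 0.05 read, with a prior of 0.17 to 0.36 reads. In this way 16.2 to 25.9 M reads per library were recovered. No 2 replicates agreed within sampling noise (lowest chi-square per degree of freedom 11.44). A value of 3 reads is at most 0.2 CPM.

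Each table was fitted with limma 3.58.1 in R 4.3.3 (trend and robust variance, statmod 1.5.0) on genes whose mean lay above percentile 25, two-sided, with Benjamini-Hochberg adjustment at 0.05. Differences between effects were tested in 1 fit of 4 group means. The fits were also run on simulated counts with the same relative spread for every gene and no outlying library. Such counts are simpler than these data, so that run bears on the code and not on the results. A planned count model was not run because the deposited unit is log2, and voom on recovered reads was added after seeing the data. Alternatives were total-read scaling, quantile normalization, no filter, a mean of at least 1 CPM, a prior of 2 reads, the replicate number as a block, and each library left out. Python 3.11.15, numpy 2.4.6, pandas 2.3.3 and matplotlib 3.10.9 were used for the rest.

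The 40 genes and the lists were chosen with earlier results of these data known. Values per sample are given for the C1q and fibrinogen chains, for the 5 called genes with the largest rise and the 5 with the largest fall in each comparison, and for the largest differences. Other genes are named where called with an absolute log2 change of at least 1, up to 6 per comparison, beside Alb, Csf1r, Adgre1 and Clec4f. Hnf4a and Cebpa fall outside this rule and were picked after their values were seen. Adjusted p-values are by limma throughout. Intervals of changes are 95% intervals.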

Additional observations from a re-analysis of the deposited data

Results flagged for a closer look

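The STAM change at 10 weeks was tested against that at 4 weeks, and 22 of the hepatocyte-made genes had a more negative change at 10 weeks (limma, adjusted p of 0.0001689 to 0.04926). Among terminal complement genes the differences were -1.84 for C9, -1.63 for C8b, -1.19 for C8a, -0.68 for Hc and -0.61 for C8g. For the alternative pathway and C3 they were -0.95 for Cfb, -0.83 for C3 and -0.68 for Cfi. For the classical and lectin genes they were -0.81 for Mbl1, -0.72 for C4bp, -0.58 for C2 and -0.44 for Masp1. For fibrinolysis they were -0.67 for Cpb2, -0.65 for Vtn and -0.40 for Plg. For clotting enzymes, F13b and inhibitors they were -0.65 for Serpind1, -0.60 for F10, -0.60 for Klkb1, -0.58 for Serpinc1, -0.44 for F9, -0.42 for F13b and -0.41 for F2.

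In 16 of 240 groups of values, 1 library stood far from the others of its group, where chance gives about 1 in 20. MCD replicate 4 was lowest for F5 (9.63 log2 CPM), Pros1 (5.295) and C4bp (9.40). CD replicate 1 was lowest for Fgb (12.30) and Mbl1 (7.70), and CD replicate 3 was highest for C4b (10.73) and lowest for C3 (12.66). At 4 weeks STAM replicate 2 was highest for Cfb (10.18) and STAM replicate 5 lowest for Cfp (4.83). Ctrl replicate 1 at 4 weeks was highest for F9 (8.28) and lowest for C4bp (8.57). At 10 weeks STAM replicate 5 was lowest for F11 (4.71) and C9 (7.89). Ctrl replicate 2 was lowest for Kng1 (10.82), Ctrl replicate 5 highest for Serpinc1 (11.20) and Ctrl replicate 3 highest for C1qb (6.09).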

How the results depend on the processing

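Scaling to total reads gave 7586 genes higher and 1222 lower in MCD, against 3462 and 3079, 269 lower at 4 weeks, against 501, and 7019 higher and 953 lower at 10 weeks, against 3876 and 3443. For the difference between ages it gave 2899 more positive and 539 more negative, against 1335 and 1676, and for MCD against 10 weeks 2672 and 1601, against 1929 and 2249. Of the 36 hepatocyte-made genes, 1 was then higher in MCD, 2 lower at 4 weeks and 2 higher at 10 weeks, and 2 had a more positive and 12 a more negative difference between ages. Under quantile normalization 3 were higher in MCD, 2 lower at 4 weeks and 2 higher at 10 weeks, 2 were more positive and 12 more negative between ages, and 6 were more positive in MCD than at 10 weeks. Among genes called with the authors' scaling, F5 changed sign in MCD (0.026 under total-read scaling, 0.30 under quantile normalization). Under quantile normalization so did Serpind1 (0.093), Cfb (0.19) and Cfi (0.051) in MCD and F5 at 10 weeks (0.019). C3 and C4bp, below 0 and not called in MCD with the authors' scaling, were called higher there under quantile normalization, as was F5. Under total-read scaling 1 of C3 and C4bp was called higher in MCD. The cause of these changes was not tested. C1qa in MCD did not pass with voom (adjusted p = 0.0552).

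With the replicate number as a block, 641 genes were higher and 207 lower at 4 weeks, 1 hepatocyte-made gene was lower at 4 weeks, and 1 was more positive in MCD than at 10 weeks. C1qa (adjusted p = 0.0648) and F5 (adjusted p = 0.0626) then did not pass in MCD. Neither did F5 at 10 weeks (adjusted p = 0.0670), Cfp at 4 weeks (adjusted p = 0.0503) or the C3 difference between MCD and 10 weeks (adjusted p = 0.0667). C9 passed as lower at 10 weeks (-0.58, adjusted p = 0.0287). Deviations of same-numbered libraries from their group means had correlations of -0.366 to 0.0184, and none correlated best with its own number. The values thus gave no sign of pairing by number, but they cannot show that the samples were unpaired.

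With 1 library left out, the C1q chains called higher in MCD were 0 to 3 (0 without CD replicate 4), the hepatocyte-made genes called lower 34 in MCD, 1 to 6 at 4 weeks and 26 to 32 at 10 weeks, and those called higher at 10 weeks 1 to 2. At 4 weeks 278 to 722 genes were lower, 278 without STAM replicate 1, 309 without STAM replicate 5 and 318 without Ctrl replicate 2. Between ages 0 to 1 of the 36 were more positive, and in MCD against 10 weeks 0 to 2. The planned count model was not run.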
